A study of Mus musculus with 8 samples.

Results

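The fibrillar collagen chains analysed here were the 7 genes *Col1a1*, *Col1a2*, *Col3a1*, *Col5a1*, *Col5a2*, *Col5a3* and *Col11a1*, taken by their symbol from a table of 18990 genes. Each symbol occurred once, and all 7 passed the filter on low values, a mean of 1 CPM or more (reads per library, scaled to the library size) over the 8 libraries, which left 13866 genes for testing. RNA-seq was done on primary mouse embryonic fibroblasts (MEFs) of the BL6 strain with a wild-type genotype, reprogrammed at passage 2. In all groups the cells carried the tet-STEMCCA cassette (*Oct4*, *Sox2*, *Klf4* and *c-Myc*) and rtTA on lentiviruses, and reprogramming was started with doxycycline in a medium that also held Chiron, Alk5i (an inhibitor of TGF-beta signalling), ascorbic acid and LIF. The cells had received 40 nM of pooled siRNAs against *Ncor1* (*siNcor1*) or *Oct4* (*siOct4*) before doxycycline was added, and RNA was taken at day 3 and at day 6, with 2 libraries in each of the 4 groups. The comparisons set one knockdown against the other or one day against the other, since libraries with a non-targeting siRNA were not used here. In bulk samples such as these, fewer cells of a type and less RNA per cell cannot be told apart.

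The libraries held between 7735742 and 16445192 reads on genes, and the non-coding gene *Gm26917* took 15.5% to 16.6% of them at day 3 and 20.3% to 29.1% at day 6. *Ncor1* was lower in the *siNcor1* libraries at day 3 by 0.74 on the log2 scale (limma, adjusted p = 0.0139), with 7.08 and 7.20 log2-cpm against 7.82 and 7.94. At day 6 it was not lower there, with 7.26 and 7.28 log2-cpm in *siNcor1* and 7.33 and 7.13 in the libraries transfected with *Oct4* siRNA, a difference of −0.042 for the second group minus the first (adjusted p = 0.815). *Pou5f1*, which encodes OCT4 and whose coding sequence the cassette also carries, differed by −0.076 at day 3 (adjusted p = 0.941) and was higher by 1.78 at day 6 (adjusted p = 1.1e-04) in the libraries transfected with *Oct4* siRNA. At day 6, then, neither targeted gene was lower in the libraries labelled with its siRNA than in those of the other knockdown. Between the days *Ncor1* changed by 0.14 in *siNcor1* (limma, adjusted p = 0.399) and fell by 0.65 in the libraries transfected with *Oct4* siRNA (adjusted p = 7.5e-04). The values at day 6 thus do not show whether *Ncor1* was still lowered relative to a control. Libraries from before day 3 were not analysed here. Both groups are named by the siRNA in their labels, *siNcor1* and the *siOct4*-labelled libraries.

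Fibrillar collagens are the rope-like proteins of skin, tendon, bone and cartilage, and fibroblasts are among the cells that make them. Each molecule is a triple helix of 3 chains, made as a procollagen in the endoplasmic reticulum, secreted, trimmed by proteases and packed into fibrils that lysyl oxidases cross-link. Type I collagen is a heterotrimer of the products of *Col1a1* and *Col1a2*, and type III is a homotrimer of the *Col3a1* product that is laid down beside type I. Type V, built from the chains of *Col5a1*, *Col5a2* and in some tissues *Col5a3*, sits inside type I fibrils and starts their assembly. *Col11a1* encodes a chain of type XI, the counterpart of type V in cartilage, and its product can also pair with the *Col5a2* chain. Ascorbic acid is a cofactor of the hydroxylases that modify these chains, and TGF-beta is a known inducer of collagen genes.

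On mm10, *Col1a1* lies on the plus strand at chr11:94936224-94953042 and *Col1a2* on the plus strand at chr6:4504814-4541544. *Col3a1* (chr1:45311538-45349706, plus strand) and *Col5a2* (chr1:45374321-45503282, minus strand) are neighbours whose 3′ ends face each other across 24.6 kb with 0 annotated genes in between. *Col5a1* is at chr2:27886425-28039514 on the plus strand, *Col5a3* at chr9:20770050-20815067 on the minus strand and *Col11a1* at chr3:114030540-114220718 on the plus strand. Their longest coding transcripts have between 51 and 67 exons. Overlapping genes with values here were *Gm43921* at *Col1a2* and *Gm38211* at *Col5a2* on the same strand, and *2810430I11Rik* and *Gm13372* at *Col5a1* on the opposite strand. Their highest values in a library were 4.43, 3.17, 2.85 and 2.54 CPM, and the use of strand in the counting is not given in the sources used here. *Gm47302* at *Col3a1* on the same strand and *Gm26274* at *Col5a3* on the opposite strand also overlapped, but had no values here.

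The sequences just before the transcription start are shown for 4 members. These were the members whose RefSeq sequence was used here and held no annotated exon of the gene. *Col5a3* rose in both knockdowns, and *Col3a1* rose in *siNcor1* and fell in the *siOct4*-labelled libraries. *Col5a1* and *Col11a1* had similar courses (Pearson r = 0.978 over the 8 libraries). Both fell in the *siOct4*-labelled libraries. In *siNcor1* *Col5a1* fell, and the change of −0.52 in *Col11a1* did not pass the threshold (limma, adjusted p = 0.0565). A link between sequence and course was not tested. The printed sequences are the 250 bases before the start in RefSeq on GRCm38.p6, written 5′ to 3′ along the gene. CCAAT (on either strand) and TATAAA are in capitals. The windows are chr1:45311288-45311537 (plus strand), chr9:20815068-20815317 (minus strand), chr2:27886175-27886424 (plus strand) and chr3:114030290-114030539 (plus strand), and no annotated exon of the gene reaches into them.
Col3a1: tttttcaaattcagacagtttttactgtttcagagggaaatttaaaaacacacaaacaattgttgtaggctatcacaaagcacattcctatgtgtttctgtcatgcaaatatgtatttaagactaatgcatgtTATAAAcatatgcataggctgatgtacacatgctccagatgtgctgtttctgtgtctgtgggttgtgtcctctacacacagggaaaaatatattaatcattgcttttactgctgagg
Col5a3: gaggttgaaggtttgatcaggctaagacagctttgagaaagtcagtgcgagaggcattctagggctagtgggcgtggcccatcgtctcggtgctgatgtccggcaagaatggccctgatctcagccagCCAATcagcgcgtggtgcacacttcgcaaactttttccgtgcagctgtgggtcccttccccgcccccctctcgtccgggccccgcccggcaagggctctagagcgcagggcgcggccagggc
Col5a1: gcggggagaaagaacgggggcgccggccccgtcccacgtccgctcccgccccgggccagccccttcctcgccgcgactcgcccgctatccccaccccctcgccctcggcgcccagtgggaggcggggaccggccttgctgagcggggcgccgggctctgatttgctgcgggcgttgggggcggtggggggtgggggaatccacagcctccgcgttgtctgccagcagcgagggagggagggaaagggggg
Col11a1: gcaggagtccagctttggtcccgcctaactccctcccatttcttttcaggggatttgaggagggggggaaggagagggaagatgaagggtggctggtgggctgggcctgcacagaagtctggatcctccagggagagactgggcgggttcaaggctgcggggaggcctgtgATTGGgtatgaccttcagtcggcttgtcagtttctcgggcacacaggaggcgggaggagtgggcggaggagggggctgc
The *Col3a1* window had 35.2% G and C, against 62.8% for *Col5a3*, 76.4% for *Col5a1* and 62.4% for *Col11a1*, and the median of all 32851 windows of this length was 52.4%. TATAAA, searched on both strands, was found in 12.4% of all windows, and among these members it was found in *Col3a1*, beginning 117 bases before the start. CCAAT was found in 33.8% of all windows. It began 122 bases before the start of *Col5a3*, and on the opposite strand its match in *Col11a1* began 79 bases before the start. The RefSeq window of *Col1a2* also held CCAAT, 109 bases before the start, and is not printed because annotated exons reach into it. RefSeq windows of *Col1a1* and *Col5a2* were not used here.

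The type I chains *Col1a1* and *Col1a2* fell from day 3 to day 6 in both knockdowns, and ended lower in the *siOct4*-labelled libraries. *Col1a1* was at 11.90 and 11.82 log2-cpm in *siNcor1* at day 3, 12.43 and 12.72 in the *siOct4*-labelled libraries at day 3, 10.64 and 10.78 in *siNcor1* at day 6, and 9.71 and 9.68 in the *siOct4*-labelled libraries at day 6. The 4 groups did not overlap, and the knockdown with the higher *Col1a1* values at day 3 had the lower values at day 6. Non-overlap of groups of 2 libraries was not counted over all tested genes, so here and below it describes the values only. *Col1a1* fell by 1.15 on the log2 scale in *siNcor1* (SE 0.18, adjusted p = 6.6e-04, limma) and fell by 2.88 in the *siOct4*-labelled libraries (SE 0.18, adjusted p = 4.0e-07). The second change is a 7.37-fold lower level.

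*Col1a2*, the partner chain, was at 10.33 and 10.45 log2-cpm in *siNcor1* at day 3 and 10.79 and 10.99 in the *siOct4*-labelled libraries. At day 6 it was at 9.72 and 9.86 in *siNcor1* and at 8.92 and 8.95 in the *siOct4*-labelled libraries. The groups stood in the same order as for *Col1a1* and did not overlap, but the steps were smaller. *Col1a2* fell by 0.60 in *siNcor1* (SE 0.14, adjusted p = 0.00756, limma) and fell by 1.95 in the *siOct4*-labelled libraries (SE 0.14, adjusted p = 1.4e-06). The fall in *siNcor1* did not pass the threshold without *siNcor1* day 3 replicate 2 (adjusted p = 0.0757) or without *siNcor1* day 6 replicate 1 (adjusted p = 0.0858).

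*Col3a1*, the type III chain, followed another course. It was at 9.39 and 9.84 log2-cpm in *siNcor1* and 9.75 and 9.93 in the *siOct4*-labelled libraries at day 3. At day 6 it was at 10.12 and 10.27 in *siNcor1* and at 9.33 and 9.41 in the *siOct4*-labelled libraries. The day 3 groups overlapped, whereas at day 6 both *siNcor1* libraries were above all other libraries. *Col3a1* rose by 0.58 in *siNcor1* (SE 0.17, adjusted p = 0.0176, limma) and fell by 0.47 in the *siOct4*-labelled libraries (SE 0.17, adjusted p = 0.0323). Both calls were lost in some fits without 1 library, which leave a group of 1 library and so have less power. The rise was 0.36 (adjusted p = 0.185) without *siNcor1* day 3 replicate 1, 0.66 (adjusted p = 0.0603) without *siNcor1* day 6 replicate 1 and 0.51 (adjusted p = 0.12) without its replicate 2. The second change was −0.38 without *siOct4* day 3 replicate 2 (adjusted p = 0.169), −0.43 without *siOct4* day 6 replicate 1 (adjusted p = 0.0822) and −0.27 with *Gm26917* left out of the library totals (adjusted p = 0.183).

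**Figure D1:**
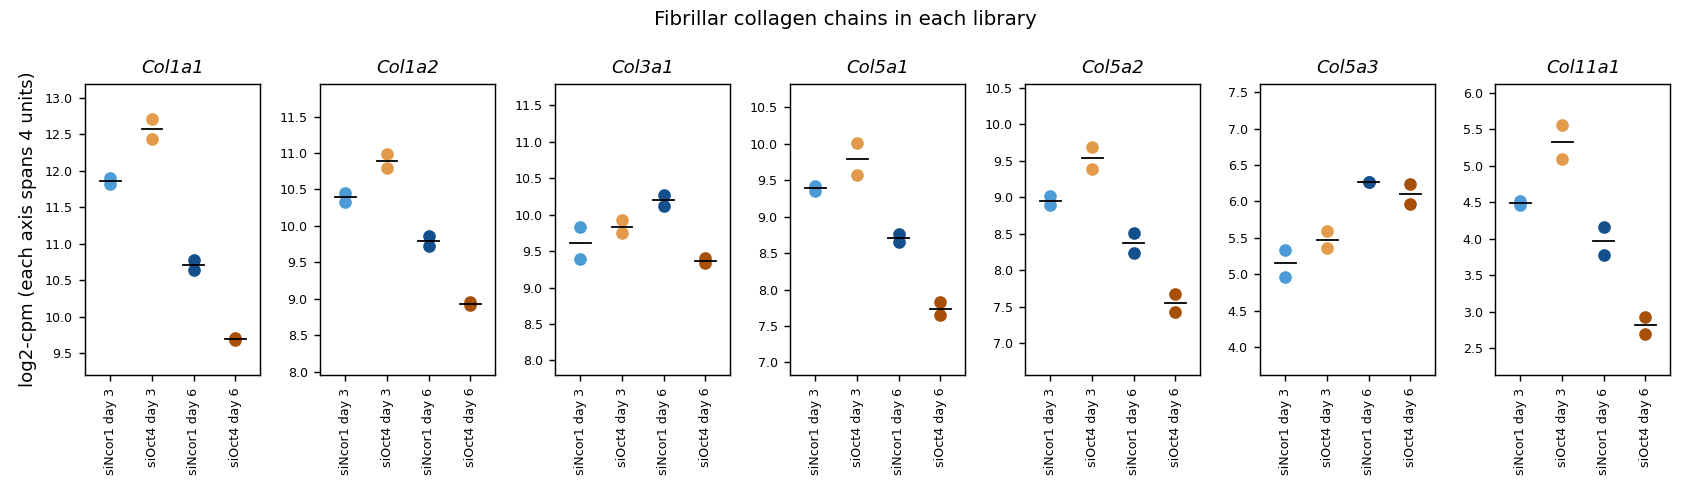
Values of the 7 chains in each library, in log2-cpm on the vertical axis with 4 units in every panel, with the 4 groups on the horizontal axis. Points are libraries and bars are group means of 2 libraries. *Col1a1*, *Col1a2*, *Col5a1*, *Col5a2* and *Col11a1* share the order of groups, with the *siOct4*-labelled libraries highest at day 3 and lowest at day 6, while *Col3a1* is highest in *siNcor1* at day 6 and *Col5a3* is higher at day 6 than at day 3.

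The classical type V chains followed the type I chains. *Col5a1* was at 9.43 and 9.35 log2-cpm in *siNcor1* and 9.57 and 10.01 in the *siOct4*-labelled libraries at day 3, and at 8.65 and 8.76 against 7.83 and 7.64 at day 6. *Col5a2* was at 8.89 and 9.02 against 9.39 and 9.69 at day 3, and at 8.24 and 8.51 against 7.43 and 7.67 at day 6. For both chains the 4 groups did not overlap. In *siNcor1*, *Col5a1* fell by 0.68 (SE 0.15, adjusted p = 0.00571, limma) and *Col5a2* fell by 0.58 (SE 0.15, adjusted p = 0.0119). Without *siNcor1* day 6 replicate 1 neither fall passed the threshold (adjusted p = 0.0566 and 0.133), and that of *Col5a2* did not pass without *siNcor1* day 3 replicate 2 either (adjusted p = 0.102). In the *siOct4*-labelled libraries the log2 fold changes were −2.05 (SE 0.15, adjusted p = 1.6e-06) and −1.99 (SE 0.15, adjusted p = 1.7e-06).

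*Col5a3*, the chain that replaces others in a less common form of type V, rose between the days in both knockdowns. It was at 4.96 and 5.34 log2-cpm in *siNcor1* and 5.36 and 5.59 in the *siOct4*-labelled libraries at day 3, and at 6.27 and 6.27 against 6.24 and 5.97 at day 6. Every day 6 library was above every day 3 library. *Col5a3* rose by 1.12 in *siNcor1* (SE 0.16, adjusted p = 3.4e-04, limma) and rose by 0.63 in the *siOct4*-labelled libraries (SE 0.16, adjusted p = 0.00501). The second rise was 0.51 (adjusted p = 0.0525) without *siOct4* day 3 replicate 1.

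*Col11a1*, the type XI chain, was the least abundant member also when divided by length, with 4.47 and 4.51 log2-cpm in *siNcor1* and 5.09 and 5.56 in the *siOct4*-labelled libraries at day 3. At day 6 it was at 3.77 and 4.17 in *siNcor1* and at 2.70 and 2.93 in the *siOct4*-labelled libraries. The groups stood in the order seen for type I and did not overlap. *Col11a1* fell by 2.52 in the *siOct4*-labelled libraries (SE 0.19, adjusted p = 1.9e-06, limma), a 5.72-fold lower level. In *siNcor1* the change of −0.52 did not pass the threshold (SE 0.19, adjusted p = 0.0565), although it did with voom on the recovered reads (adjusted p = 0.0445) and with only the groups compared (adjusted p = 0.0157). It was −0.32 (adjusted p = 0.361) without *siNcor1* day 6 replicate 1 and −0.71 (adjusted p = 0.0494) without its replicate 2, and it also passed without either *siOct4* day 6 library (adjusted p = 0.0296 and 0.0303).

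Counted over the 7 chains, 4 fell and 2 rose from day 3 to day 6 in *siNcor1*, where 20.9% of all tested genes fell and 13.8% rose. In the *siOct4*-labelled libraries, 6 fell and 1 rose, against 30.5% and 22.2% of all tested genes. The median log2 fold change of the chains was −0.58 in *siNcor1* and −1.99 in the *siOct4*-labelled libraries, beside −0.068 and −0.079 over all tested genes. The count in *siNcor1* was 2 without *siNcor1* day 6 replicate 1.

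The knockdowns were then compared at each day. At day 3 the fitted difference of the *siOct4*-labelled libraries from *siNcor1* was above 0 for all 7 chains, and 0 passed the threshold in either direction (limma, adjusted p under 0.05), beside 0.375% of all tested genes that were higher and 0.692% that were lower. At an unadjusted p under 0.05 there were 5 of the 7 chains, and voom on the recovered reads called 1, *Col11a1*. The largest differences were 0.84 for *Col11a1* (SE 0.19, adjusted p = 0.0681), 0.72 for *Col1a1* (SE 0.18, adjusted p = 0.0864) and 0.59 for *Col5a2* (SE 0.15, adjusted p = 0.103). *Col1a2* differed by 0.50, *Col5a1* by 0.40, *Col5a3* by 0.33 and *Col3a1* by 0.23, with adjusted p between 0.166 and 0.754. The last 3 moved by over 1.5 times when single libraries were left out. *Col3a1* differed by 0.0018 without *siNcor1* day 3 replicate 1 and by 0.45 without its replicate 2, *Col5a3* by 0.14 and 0.52 without the same libraries, and *Col5a1* by 0.62 without *siOct4* day 3 replicate 1 and 0.18 without its replicate 2. The median was 0.50, beside −0.021 over all tested genes.

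At day 6, 6 of the 7 chains were lower in the *siOct4*-labelled libraries and 0 were higher, beside 18.6% and 12.1% of all tested genes. *Col11a1* differed by −1.16 on the log2 scale (SE 0.19, adjusted p = 0.00161, limma). *Col1a1* differed by −1.01 (SE 0.18, adjusted p = 0.00198), a 2.02-fold lower level, and *Col1a2* by −0.86 (SE 0.14, adjusted p = 0.00169). The type V chains *Col5a1* and *Col5a2* differed by −0.97 (SE 0.15, adjusted p = 0.00131) and −0.82 (SE 0.15, adjusted p = 0.0026). *Col3a1* differed by −0.83 (SE 0.17, adjusted p = 0.00396), and by −0.76 (adjusted p = 0.0525) without *siNcor1* day 6 replicate 2. *Col5a3* was the member that did not pass, at −0.17 (SE 0.16, adjusted p = 0.441), and at −0.31 without *siOct4* day 6 replicate 1 and −0.028 without its replicate 2 (adjusted p = 0.184 and 0.913). The median of the chains was −0.86, beside −0.025 over all tested genes.

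The difference between the knockdowns changed between the days for 6 chains, all but *Col5a3* and all downwards, in a test of the change itself (limma). Of all tested genes, 12.9% changed downwards and 7.77% upwards. *Col11a1* changed by −2.00 (SE 0.27, adjusted p = 0.0010) and *Col1a1* by −1.73 (SE 0.25, adjusted p = 0.00125). *Col5a2*, *Col5a1* and *Col1a2* changed by −1.41, −1.37 and −1.35, with adjusted p of 0.00155, 0.00194 and 0.00151. *Col3a1* changed by −1.05 (SE 0.24, adjusted p = 0.0101), and by −0.98 (adjusted p = 0.0564) without *siNcor1* day 6 replicate 2. *Col5a3* changed by −0.50 (SE 0.22, adjusted p = 0.128), by −0.63 (adjusted p = 0.0458) without *siOct4* day 6 replicate 1 and by −0.31 (adjusted p = 0.374) without *siNcor1* day 3 replicate 1. The median of the chains was −1.37, beside 0.012 over all tested genes.

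**Figure D2:**
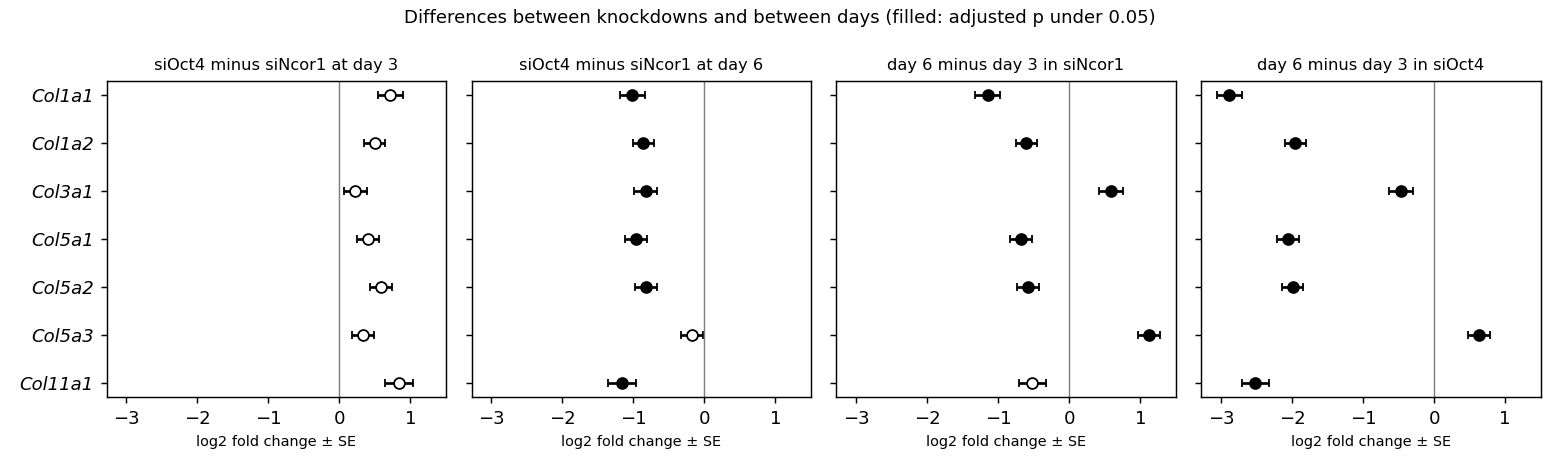
Log2 fold changes of the 7 chains with their standard errors in 4 comparisons (horizontal axis, log2 fold change from limma), one chain per line. Filled points passed an adjusted p of 0.05. At day 3 all 7 points lie above 0 and none is filled, at day 6 all 7 lie below 0 and 6 are filled, and between the days *Col3a1* and *Col5a3* lie apart from the other chains.

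The 7 chains together made up 6984 and 7165 CPM in *siNcor1* at day 3 and 9672 and 11684 CPM in the *siOct4*-labelled libraries. At day 6 they made up 4348 and 4810 CPM in *siNcor1* and 2447 and 2465 CPM in the *siOct4*-labelled libraries. The make-up of this sum differed between the days. *Col1a1* supplied 50.5% to 57.6% of the chains' reads at day 3 and 33.2% to 36.7% at day 6. The share of *Col3a1* was 8.33% to 12.7% at day 3 and 25.6% to 27.5% at day 6, and that of *Col5a3* 0.412% to 0.562% and 1.60% to 3.09%. *Col1a2* stayed between 17.4% and 20.0% in all 8 libraries. Longer genes yield more reads, so these shares describe reads and not molecules.

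**Figure D3:**
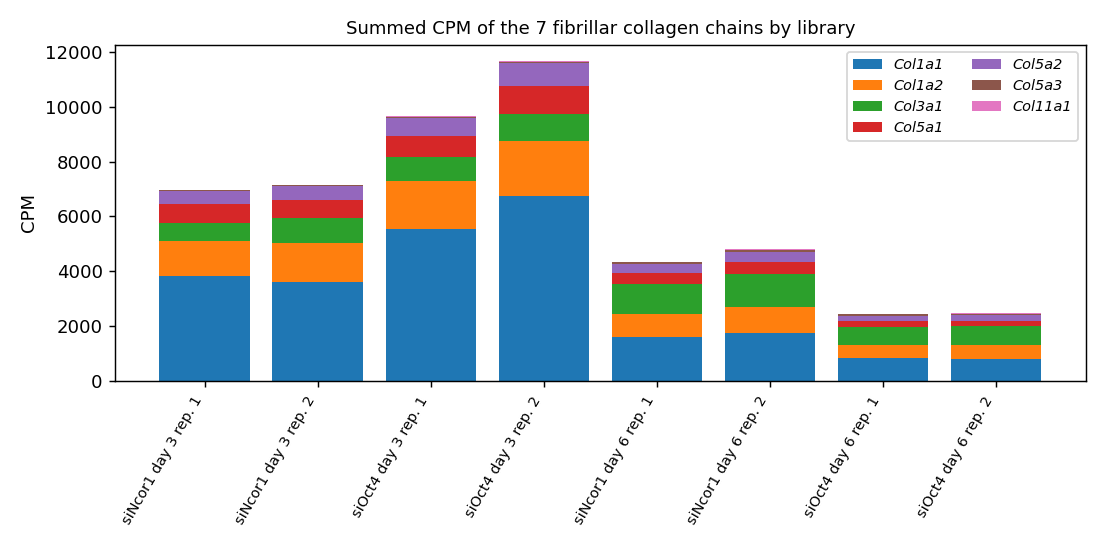
Summed CPM of the 7 chains in each library (vertical axis, linear from 0), with each bar split by chain. The bars of the *siOct4*-labelled libraries are highest at day 3 (9672 and 11684 CPM) and lowest at day 6 (2447 and 2465 CPM), and the *Col3a1* segment takes a larger part of each day 6 bar.

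Divided by the length of the annotated exons, *Col1a1* was the most abundant chain in each group, with 566 ± 21 CPM per kb (SD, n = 2) in *siNcor1* and 935 ± 129 in the *siOct4*-labelled libraries at day 3, and 255 ± 17.3 and 126 ± 2.04 at day 6. *Col1a2* followed at day 3 with 108 ± 6.40 and 153 ± 14.6 CPM per kb. At day 6 *Col3a1* was second with 120 ± 8.38 in *siNcor1* and 67.3 ± 2.51 in the *siOct4*-labelled libraries, ahead of *Col1a2* with 71.3 ± 4.91 and 39.3 ± 0.591. *Col3a1* (80.6 ± 17.6) and *Col5a1* (78.9 ± 2.90) could not be separated beyond their spread in *siNcor1* at day 3, nor could *Col5a1* (105 ± 22.5) and *Col3a1* (93.4 ± 8.26) in the *siOct4*-labelled libraries at day 3. *Col5a2* came next by its means, with 51.7 ± 3.19, 78.1 ± 11.3, 34.8 ± 4.68 and 19.6 ± 2.36 CPM per kb. In the *siOct4*-labelled libraries at day 3, *Col5a2* could not be separated from *Col5a1* or *Col3a1* beyond the spread. The values of *Col5a2* and of the chains that follow are for *siNcor1* and the *siOct4*-labelled libraries at day 3 and then at day 6. *Col5a3* had 5.23, 6.54, 11.3 and 10.1, and *Col11a1* 1.75, 3.18, 1.23 and 0.542. With coding length in place of exon length *Col1a1* still led and *Col1a2* and *Col3a1* still changed places between the days, and *Col5a1* and *Col5a2* lay close together, with 122 and 110 CPM per coding kb in *siNcor1* at day 3 and 162 and 167 in the *siOct4*-labelled libraries.

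Chains of one trimer were compared as log2 ratios inside each library. Apart from a small constant held in the deposited values, which weighs on low chains, these do not depend on how the libraries were scaled. The 5 pairs gave 10 exact two-sided permutation tests of 4 libraries against 4, whose smallest possible p is 0.0286. A p of 0.0286 in 3 of the 10 gave an adjusted p of 0.0952, so none passed 0.05 after the Benjamini-Hochberg adjustment. The 5 tests between the knockdowns pool both days, and in 4 of the 5 pairs the days' differences had opposite signs, so those tests (adjusted p between 0.343 and 0.943) describe neither day and the differences are given by day. Between groups of 2 libraries the smallest possible p is 0.333, and those steps are given as values only.

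The ratio of *Col1a1* to *Col1a2* was 1.57 and 1.37 on the log2 scale in *siNcor1* and 1.64 and 1.73 in the *siOct4*-labelled libraries at day 3, and 0.92 and 0.92 against 0.79 and 0.73 at day 6. All 4 day 6 libraries were below all 4 day 3 libraries. The difference between the days was −0.74 (exact permutation p = 0.0286, adjusted p = 0.0952). Within the knockdowns it was −0.55 in *siNcor1* and −0.93 in the *siOct4*-labelled libraries. Per coding kb there were 2.62 ± 0.25 *Col1a1* reads for each *Col1a2* read in *siNcor1* (SD, n = 2) and 3.04 ± 0.13 in the *siOct4*-labelled libraries at day 3, and 1.79 ± 0.0020 and 1.60 ± 0.050 at day 6. Per exon kb the same means were 5.25, 6.10, 3.58 and 3.21, as the annotated exons of *Col1a2* cover 12426 bases, of which 4116 are the coding bases of its longest coding transcript. The ratio in the *siOct4*-labelled libraries differed from that in *siNcor1* by 0.22 at day 3 and by −0.16 at day 6.

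Type V was read as 2 ratios. *Col5a1* over *Col5a2* was between −0.030 and 0.54 on the log2 scale in the 8 libraries. It differed by −0.082 between the days (exact permutation p = 0.6, adjusted p = 0.857), and the days overlapped. *Col5a1* over *Col5a3* was 4.47 and 4.01 in *siNcor1* and 4.21 and 4.42 in the *siOct4*-labelled libraries at day 3, and 2.38 and 2.49 against 1.59 and 1.68 at day 6. Here all day 6 libraries were below all day 3 libraries, and at day 6 those labelled *siOct4* were below *siNcor1*. The difference between the days was −2.24 (exact permutation p = 0.0286, adjusted p = 0.0952). Per coding kb, *Col5a1* reads outnumbered *Col5a3* reads 18.2-fold and 18.9-fold at day 3 and 5.12-fold and 2.94-fold at day 6, in *siNcor1* and the *siOct4*-labelled libraries. From *siNcor1* to the *siOct4*-labelled libraries *Col5a1* over *Col5a2* differed by −0.19 at day 3 and −0.14 at day 6, and *Col5a1* over *Col5a3* by 0.073 and −0.80.

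*Col11a1* over *Col5a2*, its partner in hybrid molecules, had log2 ratios between −4.75 and −4.13 in the 8 libraries and differed by −0.23 between the days (exact permutation p = 0.143, adjusted p = 0.343). The step between the days was 0.060 in *siNcor1* and −0.53 in the *siOct4*-labelled libraries, whose day 6 libraries (−4.73 and −4.75) lay below all others. Against *Col11a2*, the other chain of cartilage type XI, *Col11a1* was at log2 ratios of 3.47 and 3.52 in *siNcor1* and 4.81 and 4.95 in the *siOct4*-labelled libraries at day 3. At day 6 these were 1.80 and 2.39 against 0.44 and 1.11. All day 6 libraries were below all day 3 libraries, with a difference of −2.75 (exact permutation p = 0.0286, adjusted p = 0.0952). *Col11a2* itself was low, between 0.29 and 2.26 log2-cpm with 11 to 46 reads in a library, so the constant in the deposited values weighs on this ratio. From *siNcor1* to the *siOct4*-labelled libraries *Col11a1* over *Col5a2* differed by 0.25 at day 3 and −0.34 at day 6, and *Col11a1* over *Col11a2* by 1.38 and −1.32.

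**Figure D4:**
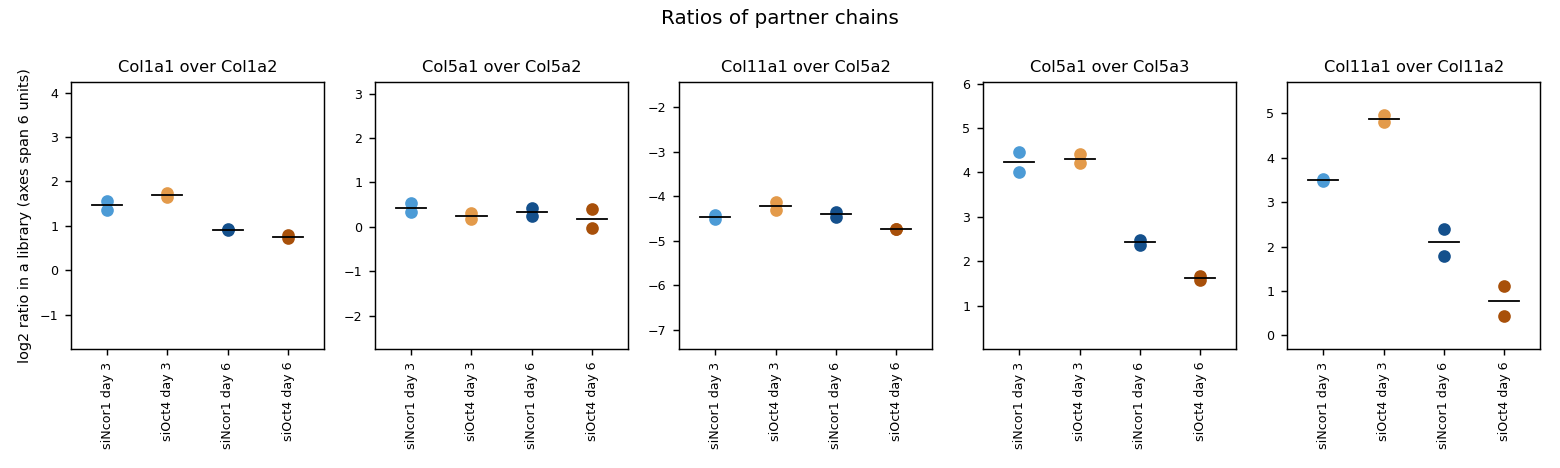
Log2 ratios of partner chains in each library (vertical axis, 6 log2 units in every panel) for 5 pairs, with the 4 groups on the horizontal axis. Points are libraries and bars are group means of 2 libraries. *Col1a1* over *Col1a2*, *Col5a1* over *Col5a3* and *Col11a1* over *Col11a2* are lower in all 4 day 6 libraries than in all 4 day 3 libraries, while for *Col5a1* over *Col5a2* and *Col11a1* over *Col5a2* the days overlap.

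The other ratios with members that rose were chosen after their values were seen and are given without a test. *Col3a1* over *Col1a1*, the type III and type I chains of mixed fibrils, had mean log2 ratios of −2.25 ± 0.37 in *siNcor1* (SD, n = 2) and −2.74 ± 0.072 in the *siOct4*-labelled libraries at day 3, and −0.51 ± 0.0032 and −0.33 ± 0.077 at day 6. *Col5a3* over *Col5a2* had −3.81 ± 0.18, −4.07 ± 0.046, −2.10 ± 0.19 and −1.45 ± 0.37 in the same order. Both ratios were thus higher in the day 6 groups.

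Across the 8 libraries, which share 2 days and 2 knockdowns and are not independent points, *Col1a1*, *Col1a2*, *Col5a1*, *Col5a2* and *Col11a1* had pairwise Pearson r between 0.977 and 0.996. *Col3a1* had r between 0.269 and 0.434 with them, *Col5a3* had r between −0.741 and −0.613, and *Col3a1* and *Col5a3* had r = 0.326 with each other. Outside the members, the profiles most like that of *Col1a1* were those of *Adam19*, *Tpm1* and *Sec31a* (r between 0.997 and 0.998). For *Col1a2* they were *Golga3*, *Gbf1* and *Dis3l* (0.996 to 0.997), for *Col5a1* *Tln1*, *Phc3* and *Sec16a* (0.995 to 0.996), and for *Col5a2* *Sulf1*, *Gbp2* and *Metrnl* (0.994 to 0.997). *Metrnl* and *Sulf1* were also among the genes nearest to *Col11a1*, with *Arhgap31* (0.993 to 0.996). *Cnr1*, *5730409E04Rik* and *Ctso* were nearest to *Col3a1* (0.960 to 0.973), and *Alkbh6*, *Stard3* and *Rilpl1* to *Col5a3* (0.970 to 0.991).

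The remaining fibrillar chain genes did not all share one course either. *Col2a1*, the cartilage type II chain, fell by 2.12 in *siNcor1* (adjusted p = 9.4e-05, limma) and fell by 3.40 in the *siOct4*-labelled libraries (adjusted p = 9.5e-07), from between 4.34 and 5.37 log2-cpm at day 3 to between 1.47 and 2.37 at day 6. *Col11a2* rose by 0.88 in *siNcor1* (adjusted p = 0.033) and rose by 1.59 in the *siOct4*-labelled libraries (adjusted p = 6.9e-04). *Col27a1* rose by 1.05 in *siNcor1* (adjusted p = 3.3e-04) and changed by −0.36 in the *siOct4*-labelled libraries (adjusted p = 0.0548). *Col24a1* changed by 0.33 in *siNcor1* (adjusted p = 0.166) and fell by 1.13 in the *siOct4*-labelled libraries (adjusted p = 2.4e-04). At day 6, *Col24a1* and *Col27a1* were lower in the *siOct4*-labelled libraries, with differences of −1.10 and −0.93 (adjusted p = 0.00126 and 0.00112), while *Col2a1* (−0.37) and *Col11a2* (0.17) did not pass.

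The genes that modify, export, trim and cross-link these chains were counted in the same fit. The counts of the lists are to be read against the shares of all tested genes, of which 13.8% rose and 20.9% fell in *siNcor1*, 22.2% rose and 30.5% fell in the *siOct4*-labelled libraries, and 12.1% were higher and 18.6% lower in these at day 6. Of 16 tested genes for modification and folding, 3 rose and 1 fell between the days in *siNcor1*, and 1 rose and 11 fell in the *siOct4*-labelled libraries, with medians of −0.091 and −0.66 beside the −0.068 and −0.079 of all tested genes. *Fkbp10*, a chaperone of procollagen, fell by 0.31 in *siNcor1* (adjusted p = 0.0471, limma) and fell by 1.61 in the *siOct4*-labelled libraries (adjusted p = 8.3e-07), whereas *Ppib*, another isomerase of the same pathway, rose by 0.74 in the *siOct4*-labelled libraries (adjusted p = 0.00406). At day 6, 7 of the 16 were lower in the *siOct4*-labelled libraries and 0 were higher (median −0.30), and *P3h3*, a member of the prolyl 3-hydroxylase family, differed by −0.76 (adjusted p = 0.00367) after a rise of 0.77 in *siNcor1* (adjusted p = 0.00258). Of 5 tested genes of procollagen export, *Sec24d*, a coat subunit of transport vesicles, fell by 1.36 in the *siOct4*-labelled libraries (adjusted p = 3.6e-06) and was lower there at day 6 with a difference of −0.91 (adjusted p = 4.5e-04). *Sar1b*, the GTPase of these vesicles, rose by 0.57 and 1.03 in *siNcor1* and the *siOct4*-labelled libraries (adjusted p = 0.0286 and 5.4e-04), while *Sec23a* fell by 0.40 in *siNcor1* (adjusted p = 0.0174). The export genes counted 1 higher and 2 lower between the days in *siNcor1*, 1 higher and 3 lower in the *siOct4*-labelled libraries, and 0 higher and 2 lower between the knockdowns at day 6, with medians of −0.36, −0.70 and −0.19.

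All 5 lysyl oxidase genes, which cross-link the fibrils, fell between the days in the *siOct4*-labelled libraries, and all 5 were lower there than in *siNcor1* at day 6, with medians of −1.23 and −0.90. In *siNcor1* 3 of the 5 fell. *Lox* fell by 1.38 in *siNcor1* (adjusted p = 2.4e-05, limma) and fell by 3.30 in the *siOct4*-labelled libraries (adjusted p = 2.1e-08), and *Loxl2* differed by −0.91 at day 6 (adjusted p = 0.00124). At day 3, *Lox* was higher in the *siOct4*-labelled libraries by 1.02 (adjusted p = 0.0049, limma). So were *Fkbp10* (0.55, adjusted p = 0.038) and *Creb3l1* (0.95, adjusted p = 0.0122). These were the 3 genes of all these lists that passed the threshold at that day, and they were named after their values were seen. They were 1 of 5 tested lysyl oxidase genes, 1 of 16 for modification and folding and 1 of 11 transcription factors. Of all tested genes, 0.375% were higher at day 3 and 0.692% were lower. Of 7 tested genes of propeptide processing, 5 were lower and 1 was higher in the *siOct4*-labelled libraries at day 6. *Tll1*, a relative of the C-propeptide protease, had log2 fold changes of −1.35 and −3.02 between the days in *siNcor1* and the *siOct4*-labelled libraries (adjusted p = 0.00163 and 2.8e-06) and differed by −1.15 at day 6 (adjusted p = 0.00515). *Adamts14*, an N-propeptide protease, rose by 1.76 in *siNcor1* and 0.77 in the *siOct4*-labelled libraries (adjusted p = 1.9e-05 and 0.00114), and *Pcolce2*, an enhancer of C-propeptide removal, was the gene that was higher at day 6, by 0.48 (adjusted p = 0.0169). In all, 2 rose and 2 fell between the days in *siNcor1*, and 1 rose and 4 fell in the *siOct4*-labelled libraries, with medians of 0.11 and −0.97, and the median at day 6 was −0.73.

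Several counts of the lists below lie near the shares of all tested genes, such as 1 higher and 2 lower of 7 receptors in *siNcor1* beside 13.8% and 20.9%, or 2 lower of 11 transcription factors at day 6 beside 18.6%. Among 10 tested organisers of fibrils, 5 rose and 3 fell between the days in *siNcor1*, 4 rose and 5 fell in the *siOct4*-labelled libraries, and 7 were lower and 0 higher in those libraries at day 6, with medians of 0.72, −0.51 and −0.85. The small proteoglycan gene *Lum* rose by 2.70 in *siNcor1* (adjusted p = 1.3e-04, limma), whereas *Fmod*, of the same family, had log2 fold changes of −1.84 there and −3.29 in the *siOct4*-labelled libraries (adjusted p = 2.9e-05 and 1.4e-07). *Tnxb*, a tenascin, rose by 1.85 in the *siOct4*-labelled libraries (adjusted p = 5.0e-05), and *Sparc*, a collagen-binding matrix protein, differed by −1.03 at day 6 (adjusted p = 6.6e-04). Of 5 tested fibril-associated collagens, 3 were lower at day 6 in the *siOct4*-labelled libraries, among them *Col12a1* (−1.30, adjusted p = 7.2e-04), which fell by 2.18 between the days there (adjusted p = 3.7e-06). In *siNcor1*, *Col16a1* rose by 1.39 and *Col14a1* fell by 1.46 (adjusted p = 4.3e-05 and 0.00378), and these were the 2 that passed. In the *siOct4*-labelled libraries, 0 rose and 2 fell, and the medians were 0.23, 0.0084 and −0.79 in *siNcor1*, in those libraries and at day 6.

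Of 7 tested collagen receptors, 1 rose and 2 fell between the days in *siNcor1*, and 0 rose and 6 fell in the *siOct4*-labelled libraries, with medians of −0.34 and −1.17. The integrin gene *Itga11* had log2 fold changes of −1.09 and −2.42 in this order (adjusted p = 0.00676 and 1.7e-05, limma), and *Mrc2*, an endocytic receptor for collagen, rose by 0.85 in *siNcor1* (adjusted p = 2.8e-04). At day 6, 4 receptors were lower in the *siOct4*-labelled libraries, and *Itga1* differed by −1.17 (adjusted p = 0.00152, list median −0.73). All 4 tested genes of collagen degradation rose between the days in *siNcor1* and all 4 were lower in the *siOct4*-labelled libraries at day 6, with medians of 1.22 and −0.95. The collagenase gene *Mmp13* rose by 1.61 (adjusted p = 0.00162) and differed by −1.35 at day 6 (adjusted p = 0.00552). *Mmp14* was the one that passed in the *siOct4*-labelled libraries, where it fell by 0.83 (adjusted p = 1.9e-04). Of 11 transcription factors described at type I collagen promoters, 0 rose and 3 fell in *siNcor1*, 1 rose and 5 fell in the *siOct4*-labelled libraries, and 2 were lower in those at day 6, with medians of −0.16, −0.30 and −0.081. *Creb3l1* fell by 1.66 in the *siOct4*-labelled libraries (adjusted p = 4.9e-06) and differed by −0.55 at day 6 (adjusted p = 0.0161), *Nfyb* rose by 0.48 there (adjusted p = 0.00712), and *Smad4* fell by 0.60 in *siNcor1* (adjusted p = 0.00187).

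Markers of cell types were summed in each library. The 7 fibroblast markers, all of them in the table, summed to 2325 to 2657 CPM in *siNcor1* and 2736 to 2821 CPM in the *siOct4*-labelled libraries at day 3, and to 2321 to 2498 against 1409 to 1458 CPM at day 6. *Vim*, at 983 to 2255 CPM in the 8 libraries, made up most of each sum. At day 6 all 7 were lower in the *siOct4*-labelled libraries, beside 18.6% of all tested genes. Between the days in *siNcor1*, where the type I chains fell, 4 of the 7 rose and 0 fell, beside 13.8% and 20.9% of all tested genes. In the *siOct4*-labelled libraries 0 rose and 2 fell between the days, beside 22.2% and 30.5%. The 4 smooth muscle markers summed to 1273 to 1866 CPM in *siNcor1* and 2520 to 2813 CPM in the *siOct4*-labelled libraries at day 3, and to 348 to 379 against 134.0 to 134.8 CPM at day 6, which is the order of groups seen for *Col1a1*. The 6 epithelial markers, of which the 5 tested rose in both knockdowns, summed to 52.5 to 54.7 CPM at day 3 and 589 to 617 CPM at day 6 in *siNcor1*, and to 15.4 to 17.5 CPM and 265 to 293 CPM in the *siOct4*-labelled libraries, and the 4 pluripotent cell markers were at 1.30 CPM or less at day 3 and at 48.8 to 52.0 against 17.9 to 18.8 CPM at day 6. The cartilage markers, 4 of 5 in the table and *Col2a1* among them, summed to 31.1 to 32.7 against 50.0 to 59.9 CPM at day 3 and to 12.1 to 16.4 CPM at day 6. Of the bone markers 2 of 4 were in the table, at 24.4 to 36.9 CPM, of which *Alpl* gave 19.2 to 33.5 CPM. The macrophage markers, 3 of 4 in the table, summed to at most 10.0 CPM and the 4 endothelial markers to 16.4 to 44.3 CPM, with *Adgre1*, *Pecam1* and *Cdh5* under 1 CPM in all libraries. Of the endothelial sum, *Tek* gave 15.8 to 43.2 CPM. The part of these cell types in the collagen values was not tested.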

How the data were processed

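The authors aligned paired-end reads of rRNA-depleted libraries, made from 200 ng of total RNA, with STAR 2.5.2b to mm10 and deposited log2-cpm values computed with edgeR 3.20.9. The counting tool is not given in the sources used here. Removal of a constant on the linear scale gave whole reads within 0.1 read for 100% of values. In each library 3 reads stand for 0.174 to 0.380 CPM, and the lowest deposited log2 value was −2.87. The 13866 genes at a mean of 1 CPM or more were fitted together in 4 groups with limma 3.58.1 (lmFit, eBayes with a trend, R 4.3.3), with Benjamini-Hochberg adjustment at 0.05. The study calls the replicates biological, and as the labels do not name separate cultures or MEF preparations, p-values measure the spread between these libraries. Gene models came from GENCODE M21, which matched 18969 of the 18990 identifiers. Ratios of chains were tested with exact permutation tests in scipy 1.17.1. The scripts were tested on simulated data.

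The members and gene lists were chosen with earlier results of these data known. Named were all 7 chains, the other fibrillar chains, the gene of each list with the largest rise and fall past the threshold at day 6 and between the days, and the 3 genes nearest to each chain by Pearson r. Alternatives were a fit without the trend, median centring, quantile normalization, other filters and pseudocounts, the replicate number as a block, voom, a fit of only the groups compared and leaving out each library. Totals without *Gm26917* were added after the data were seen. The differential tests against control libraries that the authors made were not repeated here. Figures were drawn with matplotlib 3.10.9.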

Additional observations from a re-analysis of the deposited data

Results flagged for a closer look

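The change from day 3 to day 6 differed between the knockdowns for 6 of the 7 chains and for 3 of the 4 other fibrillar chain genes, by the limma test of the change in the knockdown difference (*siOct4*-labelled libraries minus *siNcor1*, adjusted p under 0.05). The values on the log2 scale were −1.73 for *Col1a1*, −1.35 for *Col1a2*, −1.05 for *Col3a1*, −1.37 for *Col5a1*, −1.41 for *Col5a2* and −2.00 for *Col11a1*. They were −1.29 for *Col2a1*, −1.45 for *Col24a1* and −1.41 for *Col27a1*. In the same test, 12.9% of all tested genes changed downwards and 7.77% upwards. Groups of 2 libraries were not searched for outlying libraries.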

How the results depend on the processing

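No fold change of a chain reversed in any comparison under any alternative. The fit without the trend, other filters, the replicate block and a fit of only the groups compared leave a fold change as it was. So does leaving out a library of a group not compared, and none of these could reverse a sign. Under the alternatives other than leaving out a library, 4 values of the chains lost the threshold and 8 gained it, while 366 kept their call. Of the other named genes, 11 values lost it there and 4 gained it. Calls of chains and of other named genes were also lost or gained without 1 library. The counts of the gene lists moved by over 1.5 times in 72 of 400 values recomputed without 1 library and in 38 of 540 under the other alternatives. At day 3 the count of chains past the threshold, 0 as reported, was 3 with the replicate number as a block, 1 with voom, 1 with only the groups compared, and 0 to 2 when 1 library was left out. The 3 chains under the block were *Col1a1*, *Col5a2* and *Col11a1* (adjusted p = 0.0465, 0.0238 and 0.0213, limma). In *siNcor1* the count between the days was 2 to 7 when 1 library was left out. Same-numbered libraries had deviations that correlated between −0.040 and 0.281, and the numbers were not taken as pairs in the main fit. With the block, more of all tested genes were called in every comparison, such as 222 against 148 between the knockdowns at day 3. The block moved no other count of chains by over 1.5 times, though *Col11a1* also passed between the days in *siNcor1* (adjusted p = 0.0216, limma). *Col3a1* between the days in the *siOct4*-labelled libraries also missed the threshold without the trend, with median centring and with only the groups compared. Leaving *Gm26917* out of the totals moved the median of all genes between the days from −0.079 to 0.11 in the *siOct4*-labelled libraries, from −0.068 to 0.013 in *siNcor1*, and between the knockdowns at day 6 from −0.025 to 0.079.

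Between the knockdowns over both days, leaving out 1 library gave log2 ratios that differed by −0.14 to 0.20 for *Col1a1* over *Col1a2*, −0.84 to 0.097 for *Col5a1* over *Col5a3*, −0.16 to 0.047 for *Col11a1* over *Col5a2* and −0.68 to 0.83 for *Col11a1* over *Col11a2*. The last was −0.018 with a pseudocount of 1. Between the days *Col11a1* over *Col11a2* differed by −3.07 to −2.42. At day 6, leaving out 1 library gave −0.76 to 0.026 for *Col2a1*, −0.054 to 0.38 for *Col11a2* and −0.14 to 0.054 for *Ncor1*, and *Ncor1* differed by 0.0062 with quantile normalization and 0.063 without *Gm26917* in the totals. The causes were not tested. With 2 libraries a group, a lone library left in a group was assumed to vary like the others.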
